A study of Mus musculus with 10 samples.

Results

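Across the Klf2, Klf4 and Klf5 loci, the peak lists of FLAG-tagged Nanog and of the co-repressor scaffold Sin3a held 13 peaks out of 110170 in all. The members were the peaks that overlapped, by at least 1 base, a window around each gene in mouse build mm9: chr8:74810000-74880000 for Klf2, chr4:55450000-55600000 for Klf4 with its distal enhancers, and chr14:99650000-99760000 for Klf5. The Klf2 window held 7 of the peaks, the Klf4 window 5 and the Klf5 window 1. Peaks of the 4 lists that shared a base were merged, which gave 4 sites among 45707 merged regions of the genome.

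ChIP-seq had been run on pre-iPSCs, partly reprogrammed cells made from female neural stem cells of 129/MF1 mice, which carry an Oct4-GFP-IRES-puro reporter and were grown in serum with LIF. Under drug selection, PiggyBac transposons driven by CAG gave 3 stable lines. The Nanog + Sin3a line received Nanog (FLAG) and Sin3a, the Nanog line received Nanog (FLAG) plus an empty vector, and the Sin3a line received Sin3a plus an empty vector. FLAG ChIP was done in the Nanog + Sin3a and Nanog lines and Sin3a ChIP in the Nanog + Sin3a and Sin3a lines, in duplicate. Nanog was thus read through the tag of the transgene, whereas the Sin3a antibody does not tell the added protein from the cells' own. For each of these 4 groups a single peak list was deposited, without values per replicate, so the replicate spread behind each difference is unknown and no test was run.

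Klf2, Klf4 and Klf5 are Krüppel-like factors, which bind GC-rich boxes and CACCC motifs through zinc fingers near their C-terminus. In mouse embryonic stem cells they act redundantly in self-renewal and occupy many of the same enhancers as Nanog, Oct4 and Sox2. Klf4 is a classical reprogramming factor that responds to LIF and Stat3, Klf2 can stand in for it in reprogramming and is sustained when Erk signalling is blocked, and Klf5 also restrains differentiation. Sin3a carries histone deacetylases to chromatin, and Nanog is a homeodomain protein.

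Of the 3 genes, Klf2 and Klf4 were matched among the promoters used, and these are also the loci at which both proteins had sites. The sequences of their promoters are shown. They are the 250 bases before the RefSeq start site in build GRCm38.p6, matched by gene symbol, at chr8:72318812-72319061 on the plus strand for Klf2 and chr4:55532476-55532725 on the minus strand for Klf4. Positions in that build cannot be compared with those of the peaks, which are in mm9, and whether a peak lies within these bases was not tested. Capitals mark the GC box GGGCGG, the type of motif that Sp and Krüppel-like factors bind, on either strand.
Klf2: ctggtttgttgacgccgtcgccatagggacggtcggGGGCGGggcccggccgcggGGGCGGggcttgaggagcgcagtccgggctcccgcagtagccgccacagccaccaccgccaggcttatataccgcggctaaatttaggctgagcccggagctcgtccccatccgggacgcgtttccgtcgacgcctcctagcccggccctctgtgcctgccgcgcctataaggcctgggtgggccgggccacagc
Klf4: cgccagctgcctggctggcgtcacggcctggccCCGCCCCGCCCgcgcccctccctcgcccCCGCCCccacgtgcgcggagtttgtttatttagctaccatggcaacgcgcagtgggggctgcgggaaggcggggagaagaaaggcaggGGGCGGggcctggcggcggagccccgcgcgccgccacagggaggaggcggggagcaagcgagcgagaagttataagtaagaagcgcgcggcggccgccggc

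The GC box occurred 2 times in the Klf2 promoter and 4 times in the Klf4 promoter, with overlapping matches counted. Of the 32851 promoters in the RefSeq table, 32.7% held it at least once, 16.7% at least 2 times and 4.09% at least 4 times. GC made up 71.2% of the Klf2 bases and 74% of the Klf4 bases, against a median of 52.4% over all promoters. The letters TAAT, the core that homeodomains bind, were on neither strand of these 2 windows, while 54.9% of all promoters held them on 1 strand or the other. Klf5 was not among the promoters used.

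Nanog's strongest site at the 3 loci lay in the Klf2 window, and this was the only window with more than 1 site. Klf2 site 1, at chr8:74834751-74835223, was bound by FLAG-Nanog in both lines and carried a weak Sin3a peak in the Nanog + Sin3a line only. Klf2 site 2, at chr8:74842767-74843489, held peaks of all 4 lists. The Klf4 site, at chr4:55542987-55543897, also held peaks of all 4 lists, but all of them were weak. The Klf5 site, at chr14:99698240-99698485, was a Sin3a peak of the Sin3a line with no FLAG peak in the window. Klf2 lies between Ap1m1 and Eps15l1, Klf4 between Rad23b and Actl7b, and Klf5 between Pibf1 and Klf12 in the order of protein-coding genes of the RefSeq table. Distances from summits to gene starts were not computed, because that table is of GRCm38, and the sites are therefore named for the window they lie in.

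**Figure D1:**
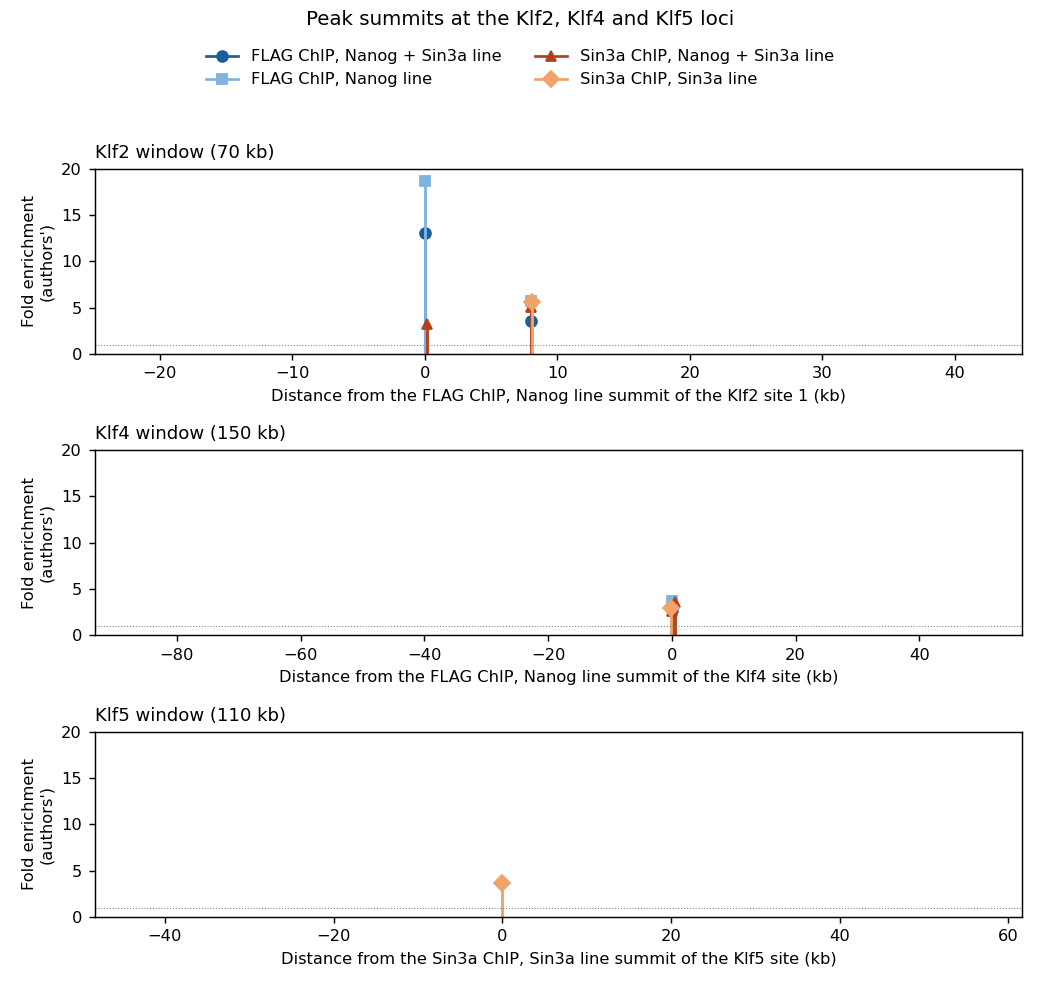
Summits of the 13 peaks in the Klf2, Klf4 and Klf5 windows, with distance in kb on the horizontal axis and the authors' fold enrichment on the vertical axis, 1 colour and marker for each list and a dotted line at a fold of 1. FLAG stood at 13.1 in the Nanog + Sin3a line and 18.7 in the Nanog line at Klf2 site 1, and all the other peaks lay below 6.

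Of the 4 sites, 3 held both FLAG and Sin3a peaks, against 37.2% of all merged regions. None held FLAG alone, against 57.5% of all regions, and 1 held Sin3a alone, against 5.27%. Sites of all 4 lists were 2 of the 4, against 25.7% of all regions. The combination at Klf2 site 1, FLAG in both lines with Sin3a in the Nanog + Sin3a line only, was found in 3.65% of all regions, and that at the Klf5 site, Sin3a of the Sin3a line alone, in 1.61%. Per Mb of the 3 windows together, FLAG had 9.09 peaks in each line. Over the genome it had 13.7 in the Nanog + Sin3a line and 14.5 in the Nanog line. The FLAG density was 28.6 in the Klf2 window, 6.67 in the Klf4 window and 0 in the Klf5 window, in each line. Sin3a had 12.1 per Mb of the windows in the Nanog + Sin3a line, against 6.87 over the genome, and 9.09 in the Sin3a line, against 6.47. With 4 sites these counts and densities describe the loci and nothing more.

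At Klf2 site 1, the authors' fold enrichment of FLAG at the summit was 13.1 in the Nanog + Sin3a line and 18.7 in the Nanog line. These peaks ranked 1051 of 36286 in the Nanog + Sin3a line and 256 of 38485 in the Nanog line by −log10 q, the authors' adjusted significance, which placed them in the top 2.90% of the list of the Nanog + Sin3a line and the top 0.665% of that of the Nanog line. The median fold of FLAG was 4.74 over the whole list of the Nanog + Sin3a line and 4.75 over that of the Nanog line. The summits, at position 74834921 in the Nanog + Sin3a line and 74834902 in the Nanog line, were 19 bp apart. Over them lay 106 ChIP fragments in the Nanog + Sin3a line (95% Poisson interval 86.8 to 128) and 128 in the Nanog line (107 to 152). These numbers were recovered from fold and p-value, before the authors' scaling of each list, and their intervals cover counting error only.

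Sin3a at Klf2 site 1 had a fold of 3.23 in the Nanog + Sin3a line and no peak in the Sin3a line. That peak ranked 17228 of 18231, with a −log10 q of 3.23 and 24 fragments over its summit (15.4 to 35.7). Among peaks at the base background, the lowest number of fragments with which any Sin3a peak was called was 20 in the Nanog + Sin3a line and 23 in the Sin3a line. These numbers are unscaled and are not comparable between the lines, and the level of Sin3a at this site in the Sin3a line is unknown, since the list holds called peaks only. Where FLAG and Sin3a shared a region in this way, the 1718 Sin3a peaks had a median fold of 3.61 (quartiles 3.23 and 3.99). The Sin3a summit, at 74835072, lay 151 bp from the FLAG summit of the same line, farther than the median of 82 bp over 12359 pairs (quartiles 33 and 169). Among the strongest 5% of FLAG peaks in the Nanog + Sin3a line, 50.6% had a Sin3a peak in the same line. Of the strongest 5% of FLAG peaks of the Nanog line, 30.4% had no Sin3a peak of the Sin3a line.

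**Figure D2:**
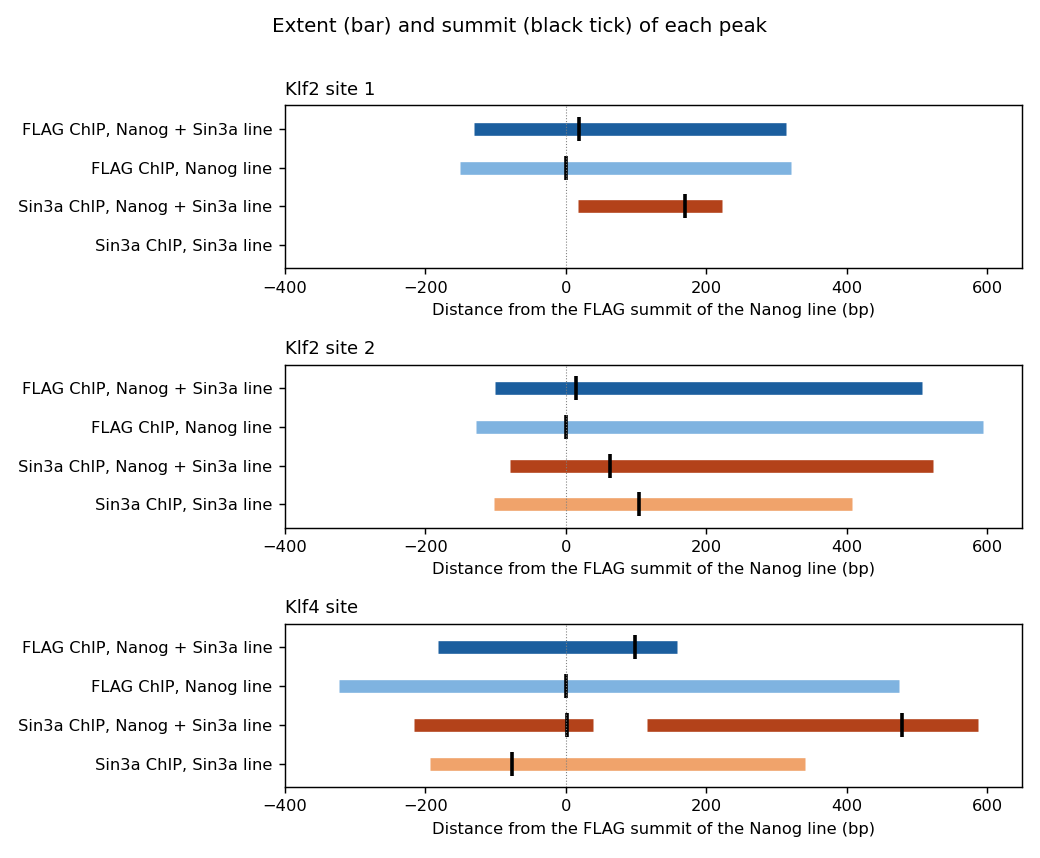
Extent (bars) and summits (black ticks) of the peaks at the 3 sites with both proteins, in bp from the FLAG summit of the Nanog line, with 1 row for each list. The Sin3a summit lay 151 bp to the right of the FLAG summit of the same line at Klf2 site 1, and Sin3a of the Nanog + Sin3a line was split into 2 peaks at the Klf4 site.

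Klf2 site 2 lay about 8 kb from site 1: the distance between their summits was 7988 bp for FLAG in the Nanog + Sin3a line, 7993 bp for FLAG in the Nanog line and 7886 bp for Sin3a in the Nanog + Sin3a line. FLAG folds at site 2 were 3.59 in the Nanog + Sin3a line and 5.72 in the Nanog line. By −log10 q they ranked 26499 of 36286 in the Nanog + Sin3a line and 11874 of 38485 in the Nanog line. Its Sin3a folds were 5.01 in the Nanog + Sin3a line and 5.64 in the Sin3a line, and they ranked 8452 of 18231 in the Nanog + Sin3a line and 5954 of 17168 in the Sin3a line. The FLAG summit held 33 fragments in the Nanog + Sin3a line (22.7 to 46.3) and 45 in the Nanog line (32.8 to 60.2). The Sin3a summit held 38 in the Nanog + Sin3a line (26.9 to 52.2) and 55 in the Sin3a line (41.4 to 71.6). The folds at site 2 were within the quartiles of their lists except for FLAG in the Nanog + Sin3a line, which lay below the lower quartile of 3.78.

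Within the Klf2 window the order of the sites by fold turned with the antibody, though for Sin3a it rests on few fragments. The fold of site 1 over that of site 2 was 3.64 for FLAG in the Nanog + Sin3a line and 3.26 in the Nanog line. For Sin3a, this ratio was 0.644 in the Nanog + Sin3a line. It rests on 24 fragments at site 1 (15.4 to 35.7) and 38 at site 2 (26.9 to 52.2), and these intervals overlap. In the Sin3a line, site 2 was the only Sin3a peak of the window. Of the summits at site 2, FLAG lay 14 bp apart between lines, Sin3a 41 bp, and FLAG and Sin3a 49 bp in the Nanog + Sin3a line and 104 bp across the single-transgene lines. Over all one-to-one pairs the median was 37 bp for FLAG between lines and 51 bp for Sin3a between lines, and for FLAG and Sin3a 82 bp in the Nanog + Sin3a line and 75 bp across the single-transgene lines.

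**Figure D3:**
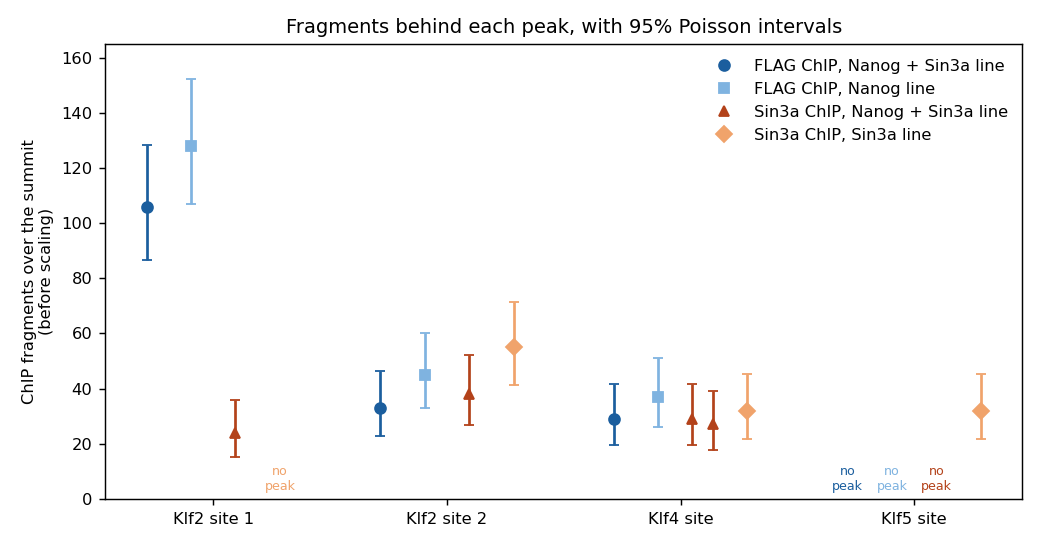
ChIP fragments over each summit, before scaling, at the 4 sites, with 1 marker per peak and bars for 95% Poisson intervals. Klf2 site 1 held 106 FLAG fragments in the Nanog + Sin3a line and 128 in the Nanog line, and all the other peaks 24 to 55.

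The Klf4 window of 150 kb held a single site of 911 bp, and the remaining bases to its left (93.0 kb) and right (56.1 kb) held no peak of any list. FLAG folds were 2.78 in the Nanog + Sin3a line and 3.68 in the Nanog line, below the lower quartiles of 3.78 in the Nanog + Sin3a list and 3.84 in the Nanog list. Sin3a had 2 peaks in the Nanog + Sin3a line, with folds of 2.60 and 3.61, and 1 in the Sin3a line, with a fold of 2.93, all below the lower quartiles of 3.74 in the Nanog + Sin3a line and 3.65 in the Sin3a line. In the Nanog + Sin3a line the −log10 q was 2.98 for FLAG and 2.45 and 4.35 for Sin3a. In the single-transgene lines it was 7.85 for FLAG and 3.30 for Sin3a.

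At the Klf4 site of the Nanog + Sin3a line, the FLAG summit held 29 fragments (19.4 to 41.6) and the Sin3a summits 29 and 27. In the single-transgene lines there were 37 for FLAG (26.1 to 51.0) and 32 for Sin3a (21.9 to 45.2). Background entered these folds too. The expected background under the summit was 7 control tags for FLAG in the Nanog + Sin3a line and 8 in the Nanog line, where the base levels of the lists were 4.76 for the Nanog + Sin3a line and 4.68 for the Nanog line. For Sin3a it was 8 and 5.05 at the 2 peaks of the Nanog + Sin3a line, where the base level was 5.05, and 7 in the Sin3a line, where it was 5.41. At Klf2 site 1 the background was 5 tags for FLAG in each line. The 2 Sin3a peaks were separated by 76 bases and their summits by 478 bp. The left summit, at 55543311, lay 1 base from the FLAG summit of the Nanog line, at 55543310, and 98 bp from that of its own line, at 55543409. The right summit, at 55543789, lay 380 bp from the FLAG summit of its own line.

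The Klf5 window of 110 kb held 1 peak, of Sin3a in the Sin3a line, with its summit at 99698333, a width of 246 bp and a fold of 3.65. It ranked 13624 of 17168, with a −log10 q of 5.09 and 32 fragments (21.9 to 45.2), and the 737 regions of this kind had a median fold of 3.43 (quartiles 3.10 and 3.76). No FLAG peak lay in the window in either line. At the base background, the lowest number of fragments of a called peak was 20 for FLAG in the Nanog + Sin3a line and 18 in the Nanog line. Chromosome 14 was sparse in peaks of each list: FLAG had 6.50 per Mb there in the Nanog + Sin3a line and 6.33 in the Nanog line, where the whole genome had 13.7 per Mb in the Nanog + Sin3a line and 14.5 in the Nanog line.

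**Figure D4:**
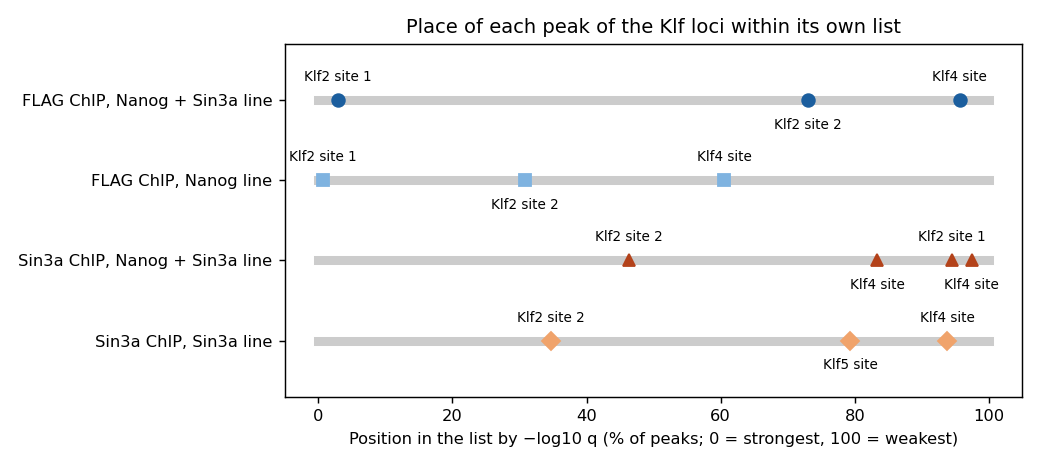
Place of each of the 13 peaks within its own list by −log10 q, as a percentage of the list from the strongest (0) to the weakest (100), with 1 row for each list. For FLAG, Klf2 site 1 was at 2.90% in the Nanog + Sin3a line and 0.665% in the Nanog line, and for Sin3a it was at 94.5% in the Nanog + Sin3a line. The Klf4 site lay beyond 60% of every list.

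Nanog's sites with and without added Sin3a were compared by setting the Nanog + Sin3a line beside the Nanog line. Whether Sin3a itself caused a difference was not tested. Each of the 3 FLAG peaks in the Nanog + Sin3a line met one called in the Nanog line, as 79.7% of its whole list did, and each of the 3 in the Nanog line met one called in the Nanog + Sin3a line, against 74.2% of that list. The FLAG fold was lower in the Nanog + Sin3a line at each of these 3 sites. The ratio of the folds, Nanog + Sin3a line over Nanog line, was 0.701 at Klf2 site 1, 0.628 at Klf2 site 2 and 0.755 at the Klf4 site. Over all 25899 pairs of FLAG peaks that overlapped one to one the median ratio was 0.912 (quartiles 0.782 and 1.08), so the lists as a whole were shifted in the same direction. Divided by this median, the 3 ratios were 0.768, 0.688 and 0.827.

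Klf2 site 2 passed the fold of 1.5 that was used to call a difference, as 8.4% of all pairs did towards lower folds and 5.35% towards higher ones, and it no longer passed once divided by the median. No site passed a fold of 2, which 0.722% of FLAG pairs did towards lower and 1.42% towards higher folds. The ratios at Klf2 sites 1 and 2 and at the Klf4 site were above those of 12.2%, 5.02% and 20.2% of all pairs. All 3 lay below the lower quartile, and none stood outside the range of other shared sites. In scaled fragments the ratios were 0.698 at Klf2 site 1 (95% interval 0.534 to 0.910), 0.618 at Klf2 site 2 (0.382 to 0.990) and 0.661 at the Klf4 site (0.392 to 1.10). These intervals, from the exact conditional binomial, cover counting error only and not the spread between replicates. The median of the scaled ratio over all pairs was not computed. An interval below 1 therefore does not by itself set a site apart from the shift of the whole lists.

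**Figure D5:**
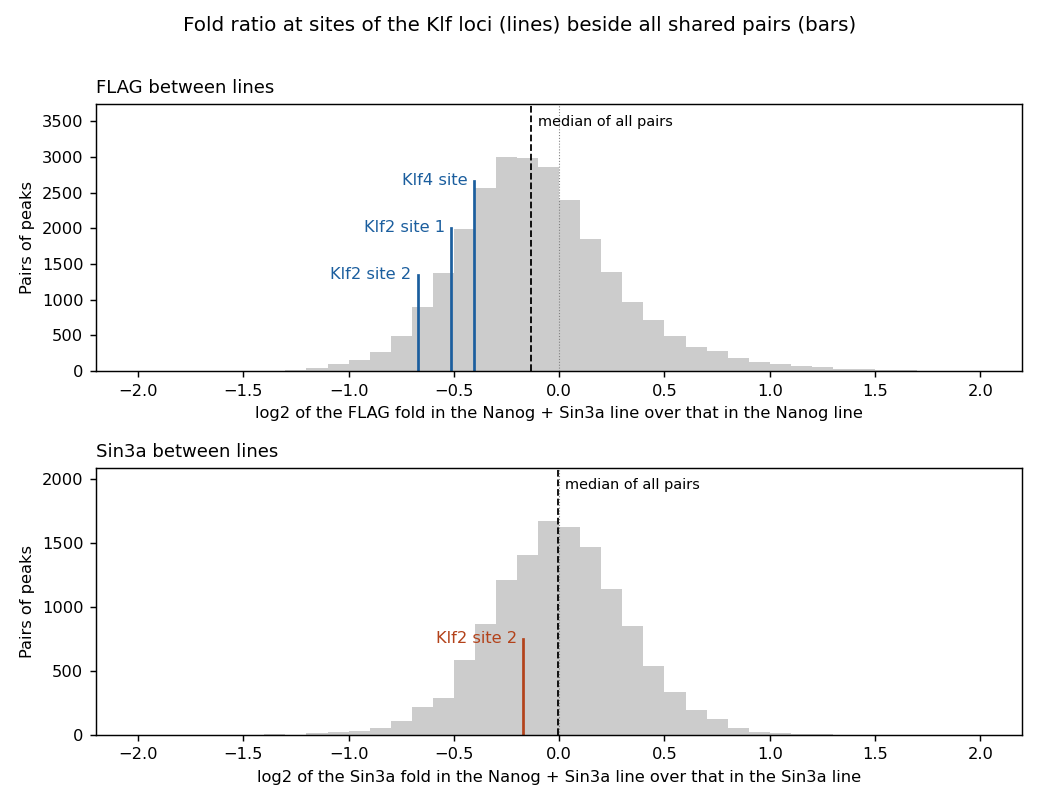
Number of one-to-one peak pairs (grey bars) by the log2 ratio of the authors' fold in the Nanog + Sin3a line over that in the Nanog line (FLAG, top) or the Sin3a line (Sin3a, bottom), with coloured lines at the sites of the Klf loci, whose heights carry no value. A dashed line marks the median of all pairs, at a ratio of 0.912 for FLAG and 0.998 for Sin3a, and the FLAG ratios of 0.628, 0.701 and 0.755 lie to its left.

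Sin3a peaks with and without added Nanog were compared in the same way, and whether Nanog itself caused a difference was not tested. With added Nanog, 3 of 4 Sin3a peaks met one called in the Sin3a line, against 80.4% of the whole list, and in the Sin3a line 2 of 3 met one called in the Nanog + Sin3a line, against 84.2%. The peaks without a counterpart were those at Klf2 site 1 and at the Klf5 site. Klf2 site 2 was the only one-to-one Sin3a pair. Its fold ratio, Nanog + Sin3a line over Sin3a line, was 0.889, where the median of 12851 pairs was 0.998 (quartiles 0.862 and 1.16) and 3.74% of pairs were lower by at least 1.5 times, 3.54% higher, 0.327% lower by at least 2 times and 0.21% higher. In scaled fragments it was 0.762 (0.490 to 1.17), an interval that includes 1.

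In the Nanog + Sin3a line, each peak at these loci met one of the other antibody: all 3 FLAG peaks overlapped a Sin3a peak, against 42.2% of the FLAG list, and all 4 Sin3a peaks overlapped a FLAG peak, against 80.3% of the Sin3a list. Across the single-transgene lines, 2 of 3 FLAG peaks of the Nanog line overlapped a Sin3a peak of the Sin3a line, against 41.8% of the list, and 2 of 3 Sin3a peaks overlapped a FLAG peak, against 88.5%. The lists came from separate precipitations, so these overlaps do not show both proteins on the same DNA molecule.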

How the data were processed

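ChIP-seq peak lists of 4 groups of pre-iPSC samples, with 2 replicates each, were analysed. Input and IgG were not used here. Per the submitters' processing notes, the tools were SAMtools 0.1.19, Bowtie 1.0.0 and FastQC 0.10.1 and the build was mm9; their roles are not stated. Neither the peak caller nor any pooling of replicates is given in the sources used here. Each deposited list has, per peak, a score that equals 10 times −log10 q without decimals, a fold enrichment (a ratio with 1 added to pileup and background, as the values show), and the authors' −log10 p and −log10 q. These values were used to describe and rank peaks within a list. Read totals of the samples are unknown here, and depth is seen only through the recovered fragments.

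The number of fragments over a summit was recovered as the whole number (tolerance 0.05) that gives both the deposited fold and the Poisson −log10 p. It was unique for each of the 13 peaks and for 94.0 to 99.5% of the peaks of a list. Pileups were scaled by 0.731 and 0.868 for FLAG in the Nanog + Sin3a and Nanog lines, and by 0.772 and 0.700 for Sin3a in the Nanog + Sin3a and Sin3a lines. A single number was found for 93.7% of simulated peaks, and in 100% of those it equalled the number drawn. These peaks were simulated with the same formula, so they check the code and not whether the formula holds for the authors' values. Overlap counts differed from bedtools 2.31.1 by 0 peaks over 4 pairs of lists. No peak passed the end of its mm9 chromosome (GenomeInfoDb 1.38.1). By the rule that names the 3 strongest sites per locus and each site with both proteins, all 4 are named. The planned counts over other Klf genes and distances to start sites were not run, as they needed an mm9 annotation. The members and comparisons were chosen with earlier results of these data known. Coordinates are 1-based. Alternatives were other overlaps, thresholds of −log10 q, equal numbers of top peaks, wider windows and other measures of strength. Scripts ran in Python 3.11.15 with SciPy 1.17.1, pandas 2.3.3, NumPy 2.4.6 and Matplotlib 3.10.9.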

Additional observations from a re-analysis of the deposited data

How the results depend on the processing

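No paired analysis was possible because only 1 list per group, with no replicate values, was used; nor could a replicate be left out. Of 101 alternative values, 70 stayed within 1.5 times of the reported count, distance or rank or within the counting interval of the ratio, 31 moved and 0 reversed. Only the FLAG ratio at Klf2 site 2 could have been labelled reversed, so that 0 says nothing of the other results. The 4 ratios set against a fold of 2 kept their value by construction. A rank near the weak end of its list could move by 1.5 times in 1 direction only. Stricter thresholds moved most of them, since most member peaks were weak. With a −log10 q of at least 5, Sin3a in the Nanog + Sin3a line had 1 peak in place of 4, sites with both proteins numbered 1 and FLAG-only sites 2. Each count of Sin3a peaks shared between lines was then 1, as was each count shared between antibodies. With a −log10 q of at least 10, each list had 1 peak except FLAG in the Nanog line, which had 2, and the sites were 1 with both proteins, 1 with FLAG only and 0 with Sin3a only. Each count shared between lines was 1, and counts shared between antibodies were 0 in the Nanog + Sin3a line and 1 across the single-transgene lines. With equal numbers of top peaks, counts shared between antibodies were 1. Windows widened by 50 kb gave 6 FLAG peaks in the Nanog + Sin3a line and 1 FLAG-only site. With −log10 q in place of fold, the FLAG ratio was 0.577 at Klf2 site 1, 0.346 at Klf2 site 2 and 0.380 at the Klf4 site. All of these passed 1.5 times, and those of Klf2 site 2 and the Klf4 site passed 2 times. The share of all FLAG pairs that did so on this measure was not computed. A shift of the whole list is therefore not separated from a difference at these sites. No ratio of folds passed 2 times. The FLAG ratios relative to the strongest 5% of pairs, and those in scaled fragments, were added once the data had been seen. Relative to the strongest pairs they were 0.822, 0.736 and 0.885 at Klf2 site 1, Klf2 site 2 and the Klf4 site. Those pairs were picked by rank in the Nanog line, the divisor of the ratio, a choice that by itself favours ratios below 1. Klf2 site 2 and the Klf4 site were not among them. In scaled fragments, at 0.661, the Klf4 site passed 1.5 too, and the share of all pairs that did so was not computed. Overlap of 50% of the shorter peak, summits within 200 bp and ranks by fold left the counts and ranks they were run on within 1.5 times of those reported.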

Other observations

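Outside the Klf2 window, but within the 50 kb by which it was widened, lay another site of both proteins. It had higher Sin3a folds than the sites inside the window and lower FLAG folds than Klf2 site 1. About 70 kb to the left of Klf2 site 1, FLAG had its main peak at chr8:74763729-74764520 in the Nanog + Sin3a line, with a fold of 8.93, and at chr8:74763417-74764696 in the Nanog line, with a fold of 9.64. Sin3a had folds of 8.46 in the Nanog + Sin3a line and 9.004 in the Sin3a line there, in the top 9.24% and 8.96% of its lists. The FLAG list of the Nanog + Sin3a line also held a second, weak peak beside it, with a fold of 2.88. To the right of Klf2 site 2 the next FLAG peak was 94.3 kb away in each line.

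The neighbouring peaks of the Klf4 and Klf5 sites lay outside their windows. The nearest FLAG peak to the left of the Klf4 site was 180 kb away in each line, and the nearest to the right 457 kb in the Nanog + Sin3a line and 583 kb in the Nanog line, while the next Sin3a peak was 179 kb to the left in the Nanog + Sin3a line and 180 kb in the Sin3a line, and 1271 kb to the right in each line. Gaps between neighbouring peaks of a list had medians of 11.1 to 23.8 kb and 90th percentiles of 118 to 274 kb. For the Klf5 site, the nearest FLAG peak lay 104 kb to the right in the Nanog + Sin3a line, with a fold of 4.23, and 199 kb to the left in the Nanog line, with a fold of 5.52. The nearest Sin3a peaks lay 199 kb to the left of it in each line, with folds of 6.55 in the Nanog + Sin3a line and 5.95 in the Sin3a line, and 2309 kb to the right in the Nanog + Sin3a line and 2308 kb in the Sin3a line.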
